A study of Mus musculus with 6 samples.

Results

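The hypothalamic neuropeptide genes described here are Hcrt, Pmch, Oxt, Avp, Agrp, Trh, Gal, Ghrh and Cartpt, 9 genes whose products are peptides made by neurons of the hypothalamus. Their members were all probe sets of the deposited table that were annotated to exactly 1 of these symbols, with no filter on dim signals. A probe set is a handful of short array probes designed against 1 transcript. This gave 8 probe sets, 1 each for 8 of the 9 genes, out of 45037 probe sets in all, and Agrp was not analysed here. The samples were brains of 4 melanotransferrin knockout mice, strain C57BL/6 - Lucy, and 2 wild-type mice, strain C57BL/6, each hybridised to its own 1-colour Affymetrix mouse array. All were females of 123 days, and the series' design text places them in 1 litter with genotypes MTf -/- and MTf +/+. The word Lucy, the deleted part of the gene and the way the brain was dissected are not stated in the labels or files. The mice are numbered in order of deposit, and a number only names a mouse.

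The hypothalamus lies at the base of the brain and controls feeding, sleep, water balance and the pituitary gland through peptides. Each peptide is cut from a precursor inside dense-core granules, released from axons or into the blood, and read by G protein-coupled receptors on other cells. Many of these genes are active in small groups of neurons: orexin (Hcrt) and melanin-concentrating hormone (Pmch) in the lateral hypothalamus, and oxytocin (Oxt) and vasopressin (Avp) in large neurons whose axons end in the posterior pituitary. Brain RNA pools all of these regions, so that fewer cells of a type cannot be told apart from less RNA per cell.

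Promoter sequences were available for 8 of the 9 genes in the RefSeq table of build GRCm38.p6, each running from 250 bases before to 50 bases after an annotated start. The series names no build. The 4 promoters below are shown because Hcrt and Pmch had their 2 lowest signals in the same mice, whereas Oxt and Avp, which are direct neighbours on chromosome 2, did not follow each other. Avp and Trh also had their lowest signals in those mice, so this does not divide the promoters shown into pairs. No link between promoter letters and signals was tested. Hcrt lies at chr11:100762882-100763181 on the minus strand, Pmch at chr10:88090822-88091121 on the plus strand, Oxt at chr2:130575919-130576218 on the plus strand and Avp at chr2:130582539-130582838 on the minus strand. Capitals mark matches, on either strand, to TATAAA (the TATA box), TGANTCA (the AP-1 site), TGACGTCA (the cAMP response element), AGGTCA (a nuclear receptor motif) and TAATTA (a LIM homeodomain core). None of these motifs overlapped another in the sequences shown.
Hcrt: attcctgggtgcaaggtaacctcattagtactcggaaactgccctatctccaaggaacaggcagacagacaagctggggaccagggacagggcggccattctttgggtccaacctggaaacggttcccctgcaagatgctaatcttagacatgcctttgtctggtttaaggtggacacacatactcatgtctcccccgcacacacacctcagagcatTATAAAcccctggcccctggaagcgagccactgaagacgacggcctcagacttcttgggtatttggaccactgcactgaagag
Pmch: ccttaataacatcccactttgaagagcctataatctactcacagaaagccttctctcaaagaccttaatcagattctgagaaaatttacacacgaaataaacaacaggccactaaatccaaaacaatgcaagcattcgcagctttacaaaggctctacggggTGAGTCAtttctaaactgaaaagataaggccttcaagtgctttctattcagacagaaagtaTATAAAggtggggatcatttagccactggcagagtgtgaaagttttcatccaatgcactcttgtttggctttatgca
Oxt: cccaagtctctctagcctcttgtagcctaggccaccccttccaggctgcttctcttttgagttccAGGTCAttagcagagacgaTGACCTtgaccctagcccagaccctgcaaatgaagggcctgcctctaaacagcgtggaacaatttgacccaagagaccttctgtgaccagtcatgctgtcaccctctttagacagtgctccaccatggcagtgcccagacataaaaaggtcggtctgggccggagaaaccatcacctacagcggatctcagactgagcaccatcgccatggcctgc
Avp: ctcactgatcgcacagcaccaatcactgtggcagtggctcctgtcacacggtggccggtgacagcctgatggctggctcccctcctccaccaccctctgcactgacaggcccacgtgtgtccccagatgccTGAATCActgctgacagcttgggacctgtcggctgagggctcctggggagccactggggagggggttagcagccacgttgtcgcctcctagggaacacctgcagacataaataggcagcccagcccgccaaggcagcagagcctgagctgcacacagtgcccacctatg

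A TATAAA match began 33 bases before the start of Hcrt and 27 bases before that of Pmch, and no match to these letters was found in the windows of Oxt and Avp. The search took exact letters only. Both of these windows hold cataaa, which differs by 1 letter and was not counted. The letters TATAAA or their complement stood in 13.6% of 32851 promoter windows of the same length. Pmch had an AP-1 match, TGAGTCA, 88 bases before its start and Avp another, TGAATCA, 119 bases before its start, as did 7.81% of all windows. Oxt held the nuclear receptor motif on both strands, 185 and 166 bases before its start, against 16.3% of all windows with at least 1 match. Outside the 4 promoters shown, the cAMP response element was found in the Cartpt window, 112 bases before the start, and in 1.79% of all windows. These matches are a description of letters, and no measurement of binding was made here.

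The series' arrays differed in ways that touch these genes. Scaled signals had the same trimmed mean on every array, but wild type 1 had 24.5% of its probe sets below 49.6, the value added before taking logs, against 17.6% to 20.2% on the other 5 arrays, and the lowest mean correlation with the others, 0.956. Knockout 2 carried little cerebellar RNA: Pcp2, a Purkinje cell gene, read 185.8 in that mouse, against 23667.6 to 31264.3 in the other knockouts and 22259.7 and 34049.7 in wild types. Knockout 3 carried pituitary RNA, with growth hormone (Gh) at 5930.1, against 109.6 to 381.4 in the other knockouts and 166.2 and 178.6 in wild types. Meltf, the targeted gene, averaged 113 ± 37.0 in knockouts (SD, n = 4) and 188 ± 58.1 in wild types (SD, n = 2), with overlapping values, and its dim probe set does not check the labels.

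Knockout and wild-type signals overlapped for all 8 peptide genes measured, and for 6 of them knockout 2 was the lowest mouse. In limma's test 0 of the 8 had an adjusted p below 0.05, and 0 had an unadjusted p below 0.05. Over all probe sets the share called was 0% for the adjusted p, 6.76% for the unadjusted p and 16.1% for groups that do not overlap, so on these measures the members' counts lay at or below the background. Of the 8, 5 had a higher and 3 a lower mean log2 value in knockouts, where 39.7% of all probe sets were lower. Their median log2 fold change was 0.078, the same as the 0.078 over all probe sets. Under median centring of the arrays both medians were -0.14. With 4 against 2 mice, an exact permutation test cannot give a p below 0.0667.

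**Figure D1:**
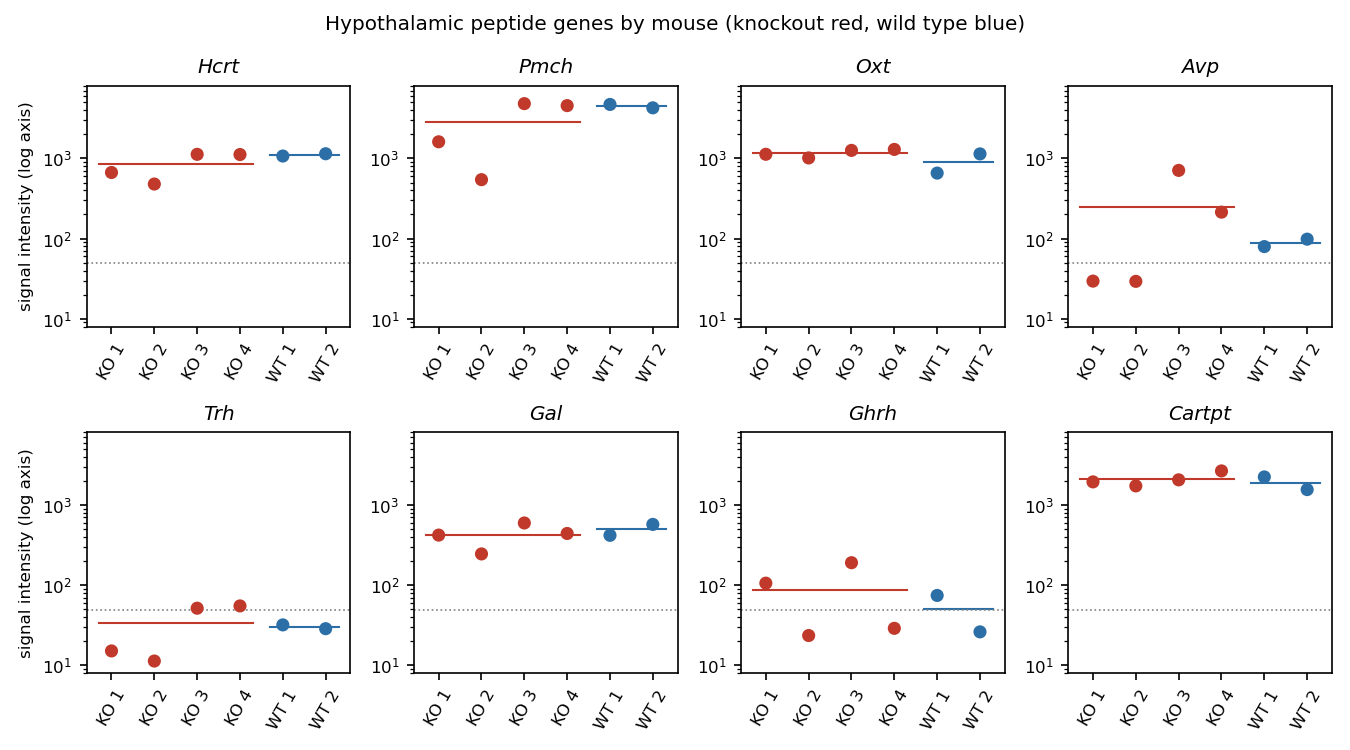
Signal intensity of each measured gene in each mouse, on a log axis, with knockout mice (KO) in red and wild-type mice (WT) in blue. Points are mice, bars are group means over 4 knockouts and 2 wild types, and the dotted line is the 49.6 added before taking logs. Pmch, Hcrt, Avp and Trh were lowest in knockouts 1 and 2, while Oxt and Cartpt varied little among knockouts.

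Melanin-concentrating hormone, encoded by Pmch, promotes feeding and sleep. Pmch read 1611.6, 543.3, 4822.2 and 4555.2 in knockouts 1 to 4, against 4710 and 4273.8 in wild types 1 and 2. Knockouts 1 and 2 were far below every other mouse, knockout 3 was above both wild types and knockout 4 lay between them. The spread over the knockouts was 8.88-fold, against 1.10-fold between the wild types. Knockouts averaged 2883 ± 2133 (SD, n = 4) and wild types 4492 ± 308.4 (SD, n = 2). On the log2 scale Pmch differed by -1.07 (SE 0.69, 95% interval -2.61 to 0.48, limma adjusted p = 0.776), and by -0.44 once knockout 2 was left out.

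Hcrt encodes the precursor of both orexins, peptides that keep animals awake. Hcrt read 667.6, 479.1, 1124.4 and 1117.5 in knockouts 1 to 4, against 1070.8 and 1143.2 in wild types 1 and 2. The order among knockouts was like that of Pmch: knockouts 1 and 2 were low, and knockouts 3 and 4 lay within the range of the wild types. The span from lowest to highest knockout was 2.35-fold for Hcrt. Its log2 fold change of -0.45 (SE 0.31, 95% interval -1.13 to 0.24, limma adjusted p = 0.784) became -0.22 without knockout 2. With arrays centred on their median the Hcrt groups did not overlap, with an adjusted p of 0.570, where 18.1% of all probe sets did not overlap.

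Oxytocin, which acts in birth, milk release and social behaviour, showed another pattern. Oxt read 1126, 1013.7, 1258.8 and 1294.9 in knockouts 1 to 4, against 656 and 1139 in wild types 1 and 2. The knockouts lay within 1.28-fold of each other, wild type 1 was lowest of the 6, and wild type 2 lay inside the knockout range. This gave Oxt a log2 fold change of 0.41 (SE 0.22, 95% interval -0.069 to 0.89, limma adjusted p = 0.743). Without wild type 1 it was 0.035, and without wild type 2 it was 0.79 with an adjusted p of 0.192.

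Vasopressin, the hormone that makes the kidney retain water, had the largest log2 range of the set, 3.27 over the 6 mice after the offset was added. Avp read 29.5, 29.3, 709.1 and 213.8 in knockouts 1 to 4, against 79.5 and 98.4 in wild types 1 and 2. Knockouts 1 and 2 were below the added 49.6, and knockouts 3 and 4 were above both wild types, so that the wild types lay between the knockouts. For Avp the fit gave a log2 fold change of 0.44 (SE 0.82, 95% interval -1.38 to 2.27, limma adjusted p = 0.923), which was -0.23 without knockout 3, the mouse with pituitary RNA. Its mean level was at the 36.1 percentile of all probe sets.

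Growth hormone and prolactin, made by the anterior pituitary, were highest in knockout 3. Prolactin (Prl) read 7.8, 38.6, 3689.6 and 320.5 in knockouts 1 to 4, against 183.3 and 28.4 in wild types. Of the 9 pituitary genes listed 8 were measured, none was listed at 0, and their signals summed to 852.3, 803.8, 10607.5 and 1742.1 in knockouts 1 to 4, against 676.1 and 718.7 in wild types. Gh and Prl made up most of the sum in knockout 3. The other hormone genes were not all high there: Lhb read 155.2 in knockout 3, the lowest of the knockouts, Tshb 255.8, against 262.3 in knockout 4, and Fshb 5.1. Cga was highest there, with 29.2, 32.4, 260.4 and 123.5 in knockouts 1 to 4, against 8.2 and 35.9 in wild types. Knockouts 3 and 4, the highest for the pituitary sum, were also the highest for Avp. By these sums the other mice did not follow this order, since knockouts 1 and 2 had higher pituitary sums than the wild types but lower Avp. With dim probe sets left out, 3 pituitary genes remained and the order of these mice changed. The pituitary list, as a mean log2 value relative to all genes, then stood at -1.05 and -0.96 in knockouts 1 and 2. In wild types 1 and 2 it was -0.43 and -0.80, so knockouts 1 and 2 were lowest, as for Avp. The part of pituitary tissue in the Avp signal was not tested.

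The releasing hormones were dim. Trh, which drives thyrotropin release from the pituitary, read 15.1, 11.3, 51.5 and 55 in knockouts 1 to 4, against 31.9 and 28.6 in wild types. Knockouts 1 and 2 were again lowest, although 4 of the 6 values lay below the added 49.6. Its log2 fold change of 0.0092 (SE 0.31, limma adjusted p = 0.996) turned to -0.16 after quantile normalisation, -0.20 after median centring and -0.058 with a smaller offset. Ghrh, the releasing hormone for growth hormone, read 105.7, 23.5, 190.3 and 28.9 in knockouts 1 to 4, against 74.3 and 26.1 in wild types. Ghrh had another order, with knockouts 1 and 3 high and knockouts 2 and 4 close to wild type 2. The Ghrh estimate, 0.32 on the log2 scale (SE 0.51, limma adjusted p = 0.907), was -0.0092 without knockout 3 and -0.035 without wild type 2.

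Galanin, encoded by Gal, is an inhibitory peptide of several hypothalamic and brainstem nuclei. Gal read 420.3, 244.8, 595.1 and 440.4 in knockouts 1 to 4, against 417.6 and 571.3 in wild types. Knockout 2 was the lowest mouse, and the other 3 knockouts lay between 420.3 and 595.1, close to the wild types. Gal differed by -0.24 on the log2 scale (SE 0.32, limma adjusted p = 0.889), and by -0.025 when knockout 2 was left out. Cartpt, the precursor of a peptide that curbs feeding and is also made outside the hypothalamus, read 1937.4, 1725.8, 2054.9 and 2654.7 in knockouts 1 to 4, against 2234.4 and 1552.9 in wild types. Wild type 2 was the lowest mouse, knockout 4 the highest, and the 6 mice spanned 1.71-fold. Cartpt had a log2 fold change of 0.15 (SE 0.20, limma adjusted p = 0.889), which was -0.068 after median centring and -0.11 without wild type 2.

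**Figure D2:**
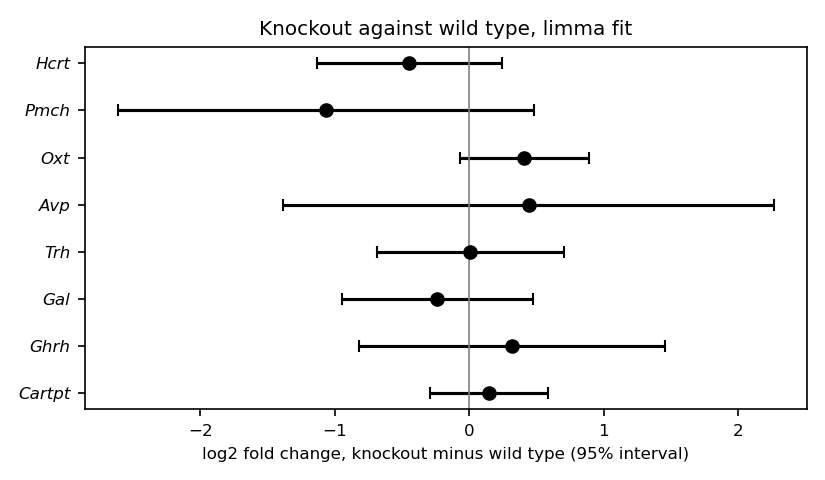
Log2 fold change of each gene, knockout minus wild type, from the limma fit over all probe sets, with 95% intervals as bars (4 knockouts, 2 wild types). Every interval includes 0, and the intervals of Avp and Pmch, from -1.38 to 2.27 and from -2.61 to 0.48, were the widest.

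Compared by mouse, knockout 2 gave the lowest of the 6 signals for 6 of the 8 genes, all but Oxt and Cartpt. For 3 of these, Avp, Trh and Ghrh, the lowest values lay below the added 49.6 and have little order, which leaves Hcrt, Pmch and Gal. Over all probe sets knockout 2 was lowest for 16.4%, and wild type 1 for 31.0%. Knockouts 1 and 2 were the 2 lowest mice for 4 genes, Hcrt, Pmch, Avp and Trh, as they were for 5.90% of all probe sets, and both counts were chosen after the values were seen. For Avp and Trh these low values again lay below the added 49.6. A log2 range of at least 2 over the 6 mice, which 4.51% of all probe sets reached, was found for Pmch and Avp. Cartpt, with a log2 range of 0.75, was the least variable. Knockout 3 was highest for Pmch, Avp, Gal and Ghrh, knockout 4 for Oxt, Trh and Cartpt, and wild type 2 for Hcrt.

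A list level was taken as the mean log2 value of a list in a mouse, after subtracting each gene's own mean over the 6 mice and the same quantity over all genes. For the hypothalamic peptides it was -0.26, -0.74, 0.66 and 0.19 in knockouts 1 to 4, against 0.11 and 0.035 in wild types. The wild types stood between the low and the high knockouts. With dim probe sets left out, which removes Avp, Trh and Ghrh, the level was 0.36 in knockout 3 and 0.21 in wild type 2. The 2 lowest mice were again knockouts 1 and 2, at -0.23 and -0.78. The level of hypothalamic transcription factors and enriched genes was -0.14, -0.087, 0.011 and 0.15 in knockouts 1 to 4, against -0.0042 and 0.074 in wild types. Knockouts 1 and 2 were the 2 lowest mice there too, within a smaller spread, and with dim probe sets left out they stood at -0.16 and -0.21. That of the other hypothalamic peptides was -0.36, 0.23, 0.32 and -0.23 in knockouts, against 0.014 and 0.032 in wild types, so knockout 2 was high there.

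**Figure D3:**
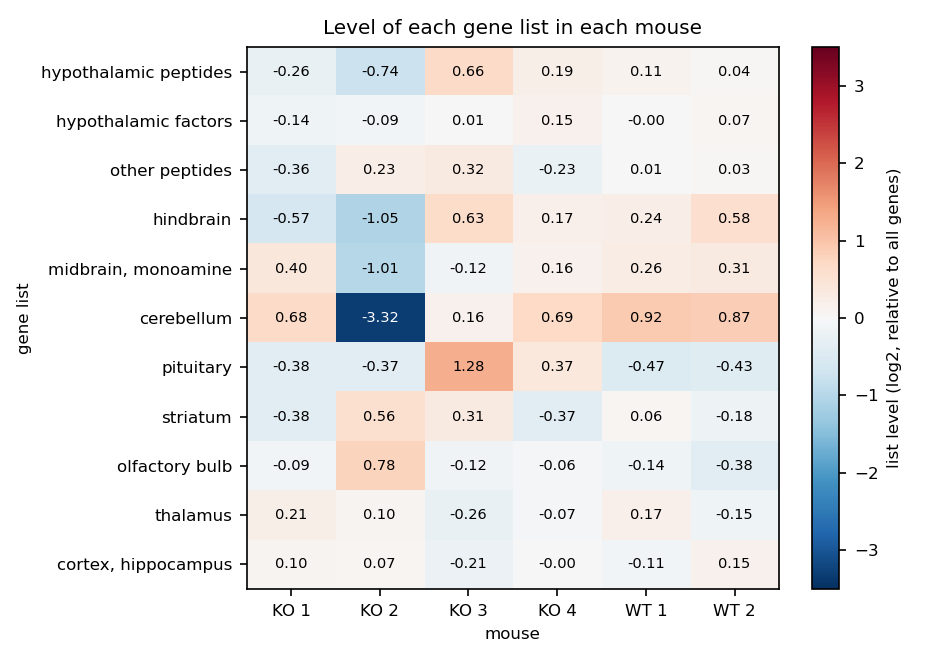
Level of each gene list (rows) in each mouse (columns), as mean log2 value relative to each gene's mean and to all genes, with blue low and red high. Hypothalamic peptides were lowest in knockout 2, at -0.74, where the cerebellum list was at -3.32 and the hindbrain list at -1.05, and the pituitary list was highest in knockout 3, at 1.28.

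Some genes of the hindbrain were also lowest in knockouts 1 and 2. The hindbrain list, of Hox genes, which pattern the hindbrain and spinal cord, and of glycine genes, stood at -0.57, -1.05, 0.63 and 0.17 in knockouts 1 to 4, against 0.24 and 0.58 in wild types. Of its 11 genes 10 were measured, none was listed at 0, and their signals summed to 2158.2, 1436.7, 5222.6 and 4072.3 in knockouts, against 3424.8 and 4433.8 in wild types. Knockouts 1 and 2 were the 2 lowest mice for 4 of these 10 genes, as they were for 5.90% of all probe sets. Other genes of the list went another way: Hoxa3 read 181.7, 184, 108.6 and 256.7 in knockouts 1 to 4, against 86.3 and 163.6 in wild types. The cerebellum list was low in knockout 2 alone, at -3.32, against 0.16 to 0.69 in the other knockouts and 0.92 and 0.87 in wild types. The part of unequal tissue content in the peptide values was not tested.

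The genes with profiles most like those of single peptides were found by the root mean square difference of log2 deviations over the 6 mice, among 5261 bright and variable probe sets. Those nearest to Pmch were Hoxa5, a hindbrain patterning gene, with a difference of 0.24, Sncg, which encodes gamma-synuclein, with 0.31, and Slc6a5, the glycine transporter of inhibitory neurons in hindbrain and spinal cord, with 0.34. This Hoxa5 probe set read 239.1, 19.2, 659.7 and 560.4 in knockouts 1 to 4, against 447.7 and 594.8 in wild types. It was not the brightest of Hoxa5, which read 818.9 to 996.3 in knockouts and 817.4 and 902.7 in wild types. Slc6a5 read 353.8, 22.9, 997.6 and 802.8 in knockouts, against 872 and 999.8 in wild types.

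Nearest to Hcrt were Mmrn2, Hebp2 and Vamp1, the last a synaptic vesicle protein, with differences of 0.099, 0.11 and 0.11. Vamp1 read 9179, 5903.8, 12556 and 12430.6 in knockouts 1 to 4, against 11451.5 and 12213.9 in wild types. For Gal they were Tppp3, Clasrp and Chchd5, with 0.097 to 0.12, and for Ghrh Tchh, Cux1 and Slc25a51, with 0.22 to 0.30. Those nearest to Avp, Cnnm4, Gtpbp1 and Sct, differed by 0.50 to 0.58. This measure grows with the range of a gene, which was 3.27 for Avp, so its size does not compare closeness between peptides. Among the peptides themselves, the difference was 0.23 between Trh and Cartpt and between Hcrt and Gal, 0.69 between Hcrt and Pmch and 1.04 between Oxt and Avp. Pmch had a log2 range of 3.04 and Hcrt of 1.17, so their difference also holds the size of the changes.

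**Figure D4:**
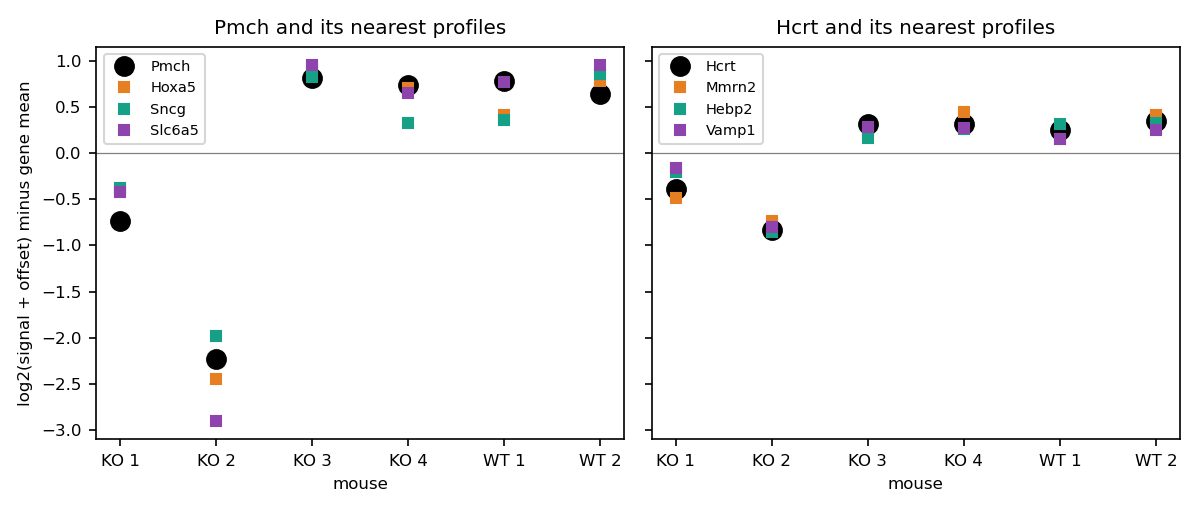
Log2 values of Pmch (left) and Hcrt (right) as black circles, and of their 3 nearest profiles as coloured squares, in each mouse (KO knockout, WT wild type), each centred on its own mean across mice. Knockout 2 is the lowest point of each profile and knockout 1 the next lowest.

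Of 15 receptor genes listed for these peptides 13 were measured, 7 of them above the dimmest 40% of probe sets. In knockouts 10 had higher and 3 lower mean log2 values. By limma 0 passed the adjusted threshold, while 2 stood below an unadjusted p of 0.05, which is 15.4% against 6.76% over all probe sets, and the median log2 fold change was 0.077. Hcrtr1, a receptor of orexin, read 38.9, 21.5, 52.5 and 72.4 in knockouts 1 to 4, against 153.7 and 139.4 in wild types. The groups did not overlap, and they differed by -1.06 on the log2 scale (SE 0.34, limma adjusted p = 0.738). The knockout values of Hcrtr1 lay around the added 49.6, and with 4 times that offset the log2 fold change was -0.50.

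Mc3r, a melanocortin receptor of the hypothalamus, read 318.1, 282.7, 254.5 and 362 in knockouts 1 to 4, against 98.6 and 193.2 in wild types. Every knockout was above both wild types. Mc3r had a log2 fold change of 0.89 (SE 0.33, limma adjusted p = 0.738), or 0.53 leaving out wild type 1. Mchr1, the receptor of melanin-concentrating hormone, read 896.9, 1084.9, 1028.7 and 811.8 in knockouts, against 953.6 and 925.2 in wild types. This was the brightest of 3 Mchr1 probe sets, and knockout 2 was its highest mouse. The next brightest read 742.6, 976.6, 819.5 and 801.7 in knockouts, against 615.3 and 627.3 in wild types, with no overlap and a log2 fold change of 0.39 (limma adjusted p = 0.738). The oxytocin receptor gene Oxtr had a log2 fold change of 0.077 and Avpr1a, a vasopressin receptor, 0.090.

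Of the genes for cutting and packing peptides, all 14 measured of 15 listed were above the dimmest 40%, 7 were higher and 7 lower in knockouts, 0 passed the adjusted threshold of limma, and the median log2 fold change was 0.013. The carboxypeptidase Cpe read 47592.6, 53442.3, 49930.5 and 44877.7 in knockouts 1 to 4, against 39514.8 and 49610.9 in wild types. Pam, which adds the amide to the end of many peptides, was the 1 of 14 genes with an unadjusted p below 0.05, or 7.14% against 6.76% over all probe sets. Pam read 1697.9, 1069.8, 978.5 and 1895.9 in knockouts 1 to 4, against 4964 and 1713.4 in wild types. Wild type 1 stood alone and the groups overlapped. Pam differed by -1.08 on the log2 scale (SE 0.39, limma adjusted p = 0.738), and by -0.33 when wild type 1 was left out.

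Of 22 other hypothalamic peptide genes 15 were measured, many of which are also made in cortex and striatum, with 10 higher and 5 lower in knockouts. By limma 0 reached an adjusted or an unadjusted p below 0.05, and the median log2 fold change was 0.10. Npy, a peptide that promotes feeding and is abundant in cortical interneurons, read 6901.4, 11086.5, 10135.4 and 8428.9 in knockouts 1 to 4, against 7599.4 and 7220.4 in wild types. Its log2 fold change was 0.28 (limma adjusted p = 0.777), and that of neurotensin (Nts) was 0.28 (adjusted p = 0.786). Knockout 2 was the lowest mouse for 0 of these 15 genes, and for 16.4% of all probe sets. Pomc, the precursor of melanocortins in the arcuate nucleus and the pituitary, read 492.6, 450.9, 1412.5 and 389.8 in knockouts, against 567.7 and 518.6 in wild types, and was highest in knockout 3.

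Hypothalamic transcription factors and enriched genes numbered 24 measured of 25 listed, with 10 higher and 14 lower in knockouts, 0 passing in limma, 4 at an unadjusted p below 0.05, which is 16.7% against 6.76% over all probe sets, and a median log2 fold change of -0.039. Sim1, needed for oxytocin and vasopressin neurons to form, read 421, 379.6, 352.6 and 336.6 in knockouts 1 to 4, against 188.3 and 366.2 in wild types. The 4 genes with the smallest p were dim. Nr5a1, a nuclear receptor of the ventromedial nucleus, read 220.8, 352.1, 41 and 352.6 in knockouts, against 32 and 35.6 in wild types, a log2 fold change of 1.59, while its other probe set had 0.11. Nkx2-1, a regulator of hypothalamic identity, had 0.88, Ghsr, the ghrelin receptor, -0.76 and Rax, a gene of hypothalamic tanycytes, -0.94. Each of the 4 had an adjusted p of 0.738 in limma. All 4 lay below the level of the dim filter, so that with it none of them was tested.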

How the data were processed

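RNA from the brains of 6 mice was measured on 6 arrays, 4 knockout and 2 wild type, grouped by the titles in the labels, and each mouse was a separate animal. The deposited values are linear signal intensity, 1 value for each probe set in each mouse, from GCOS 1.3 per the submitters' processing notes. Neither the labels nor the file header say how probes were summarised, and detection calls were not used here. The authors' intensity values had a mean of 1000.0 over the middle 96% of each array. Of 45101 probe sets, 64 controls were left out. Of the other 45037, 34945 had 1 symbol in the platform annotation, 932 had several and 9160 had none.

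Signals were taken to log2 after 49.6 was added (the 20th percentile of all values), which understates changes of dim genes. Knockout minus wild type was fitted over all 45037 probe sets with lmFit and eBayes with an intensity trend (limma 3.58.1, R 4.3.3), with 2-sided p-values adjusted by Benjamini-Hochberg and a threshold of 0.05. The smallest adjusted p of the whole table was 0.349. The number of arrays limits the precision. No batch is named in the labels. For lists, the brightest probe set stood for a gene. Motifs were searched and figures drawn in Python 3.11.15.

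The lists were the peptides, their receptors, processing genes, other peptides, hypothalamic factors, and genes of the pituitary, thalamus, cerebellum, striatum, cortex and hippocampus, midbrain, hindbrain, choroid plexus, olfactory bulb, astrocytes, oligodendrocytes, microglia and endothelium. Members and lists were chosen with earlier results of these data known. Genes named were all members, the 3 nearest profiles of members with a log2 range of at least 1, and from 4 lists those with an unadjusted p below 0.05, or else the 2 with the smallest p. Meltf and the brightest cerebellar and pituitary gene, by mean signal before taking logs, were also named. Mchr1, Oxtr, Avpr1a, Cpe, Pomc, Sim1, Prl, Lhb, Tshb, Fshb, Hoxa3, Slc6a3 and Slc6a4 were added after their values were seen. So were Cga, Neurod1, Tbr1, Neurod6, Cux2, Fezf2, Rasgrf2, Prox1 and Emx1. Alternatives were other offsets, quantile normalisation, median centring, a filter on the dimmest 40% of probe sets, no trend, robust eBayes and each mouse left out. Leaving out knockout 2 and wild type 1 together was added after seeing the data.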

Additional observations from a re-analysis of the deposited data

How the results depend on the processing

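Under every alternative run, 0 of the 8 peptides reached an adjusted p below 0.05 in limma, and 0 to 1 had an unadjusted p below 0.05 (Hcrt, Oxt or Cartpt). Over all probe sets 0 passed, except without wild type 2, where 171 did. The median log2 fold change of the peptides was 0.078, ran from -0.16 to 0.19 with 1 mouse left out and from -0.24 to 0.19 over all alternatives, so its sign was not settled. For Trh, the log2 fold change of 0.0092 became -0.058 with a smaller offset, -0.16 after quantile normalisation and -0.20 after median centring, and lay between -0.12 and 0.14 with 1 mouse left out. Cartpt became -0.068 after median centring and ran from -0.11 to 0.40 with 1 mouse left out. Those ranges were -0.23 to 0.86 for Avp and -0.035 to 0.68 for Ghrh. Hcrt, Pmch, Oxt and Gal kept their direction under all alternatives run, Pmch from -1.45 to -0.37. With knockout 2 and wild type 1 both left out, an alternative added after seeing the data, the groups of 3 peptides, Hcrt, Ghrh and Cartpt, did not overlap, as for 45.5% of all probe sets with 1 wild type left, and 0 passed. The peptide level of knockout 2, -0.74, ran from -0.91 to -0.54 over offsets, scalings and the dim filter. Avp, Trh and Ghrh lay below the dim filter, and values near the added offset have little order. No paired analysis was possible because the labels give the mice no shared replicate numbers.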

Other observations

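Levels of other region and cell type lists differed by mouse as well. The midbrain and monoamine neuron list stood at 0.40, -1.01, -0.12 and 0.16 in knockouts 1 to 4 and at 0.26 and 0.31 in wild types. The dopamine transporter gene Slc6a3 read 753, 23.6, 472.1 and 1142 in knockouts 1 to 4, against 775.7 and 539.6 in wild types, and the serotonin transporter gene Slc6a4 read 441.5, 11.3, 157.3 and 228.1 in knockouts, against 407.5 and 367.5 in wild types. Knockout 2 was the lowest mouse for both, which were named after their values were seen. It was lowest for 6 of the 9 measured genes of the list, and for 16.4% of all probe sets. Its levels of the striatum and olfactory bulb lists, 0.56 and 0.78, were the highest of the 6 mice. The astrocyte, oligodendrocyte, microglia and endothelium lists lay between -0.23 and 0.24 in all mice, and the choroid plexus and ependyma list between -0.25 and 0.32. Thalamus ran from -0.26 to 0.21, and cortex and hippocampus from -0.21 to 0.15. In the cortex and hippocampus list knockout 2 was the lowest mouse for 1 of the 8 measured genes, Neurod1. Neurod1 read 1930.6 there, against 7067.5 to 12444.2 in the other knockouts and 9272.9 and 11627.3 in wild types. The cerebellum list was low in the same mouse, at -3.32, and the part of cerebellar content in the Neurod1 value was not tested. Tbr1, Neurod6, Cux2, Fezf2 and Rasgrf2 were highest in that mouse, and Prox1 and Emx1 were neither highest nor lowest.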
